A study of Mus musculus with 8 samples.

Results

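The platelet-derived growth factor (PDGF) family and the class III receptor tyrosine kinases were examined as 10 genes of the 23284 gene symbols listed in the count tables. They were taken by symbol: the receptor genes Pdgfra, Pdgfrb, Kit and Csf1r, the PDGF ligand genes Pdgfa, Pdgfb, Pdgfc and Pdgfd, and the ligand genes of Kit and Csf1r, which are Kitl and Csf1. The cells were ID8 IP2, a mouse ovarian surface epithelial tumor line selected by serial passage through C57BL/6 mice, and every line also carried a lentiviral luciferase and mCherry reporter. The 4 Notch3IC lines had been infected with a lentiviral pCCL vector for an HA-tagged Notch3 intracellular domain joined by an IRES to GFP, and the 4 Control lines with the empty pCCL vector. Each infection gave 1 Control and 1 Notch3IC line, numbered as Sets 1 to 4. All lines were grown in DMEM with serum, ITS supplement and penicillin-streptomycin. By the study's account the cultures of both groups probably carried mycoplasma. The vector drives the active domain without ligand, so the lines model constitutive Notch3 signaling in 1 parental line.

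PDGF ligands act as disulfide-linked dimers that draw receptor chains together, after which the receptors phosphorylate each other and recruit adaptors with SH2 domains. PDGF-A and PDGF-C bind the alpha receptor, PDGF-D binds mainly the beta receptor, and PDGF-B binds both. Kit, the receptor for stem cell factor, and Csf1r, the receptor for macrophage colony-stimulating factor, share with them a row of extracellular immunoglobulin-like domains and a kinase domain split by an insert. The beta receptor is best known from mural cells of blood vessels, the alpha receptor from mesenchymal cells, Kit from germ, mast and stem cells, and Csf1r from macrophages.

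Reads counted on genes ranged from 19013578 to 28208072 in the Control libraries and from 15524262 to 27107061 in the Notch3IC libraries. Levels below are normalized counts, that is counts divided by the library size after TMM scaling and brought to the mean library size. Notch3IC was compared with Control by edgeR's quasi-likelihood test over the 12430 genes that passed its expression filter, with Benjamini-Hochberg (BH) adjustment over all of them. Called genes had an adjusted p under 0.1 and differed by 1 or more on the log2 scale. Where 4 values follow each other, they are those of Sets 1, 2, 3 and 4 in this order. The labels do not say more of the lines than their set and vector, so p-values measure the spread between these 4 lines per group. In RNA from whole cultures, fewer cells expressing a gene and less RNA per cell cannot be told apart.

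Notch3 itself was read first, as a check of the labels. The Control lines had 39, 34, 74 and 53 counts of it, and the Notch3IC lines 3864, 319, 10026 and 6915 counts. The Set 2 Notch3IC library was the lowest of its group and still lay above every Control library. The log2 fold change of Notch3 was 6.69 (SE 0.74, edgeR adjusted p = 0.0169), and the Notch target genes Hey1, Heyl and Nrarp were also called higher.

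Of the 10 genes, 9 passed the expression filter and Pdgfd did not. In Notch3IC cells 2 of the 9 were called higher, Pdgfrb and Csf1r, and 0 were called lower. Across all genes tested 3.4% were called higher and 0.74% lower. At an unadjusted edgeR p under 0.05 stood 4 of the 9 genes, Pdgfrb and Csf1r higher and Pdgfb and Csf1 lower, beside 18.4% of all genes, and DESeq2 called 2 of the 9 higher and 1, Pdgfb, lower, beside 5.05% and 1.37% of all genes. The median log2 fold change of the 9 genes was 0.49, with 7 above and 2 below 0, beside a median of -0.01 over all genes tested, of which 48.4% were above 0. Normalized counts of the groups did not overlap for the same 2 genes, both higher in Notch3IC, and for 0 with Notch3IC lower, beside 7.08% and 3.75% of all genes tested. With the matched set as a block in the edgeR fit, the same 2 genes were called higher and Pdgfb was called lower, against 5.19% of all genes called higher and 2.53% lower. The plot of all genes places Pdgfrb far from the other 8.

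**Figure D1:**
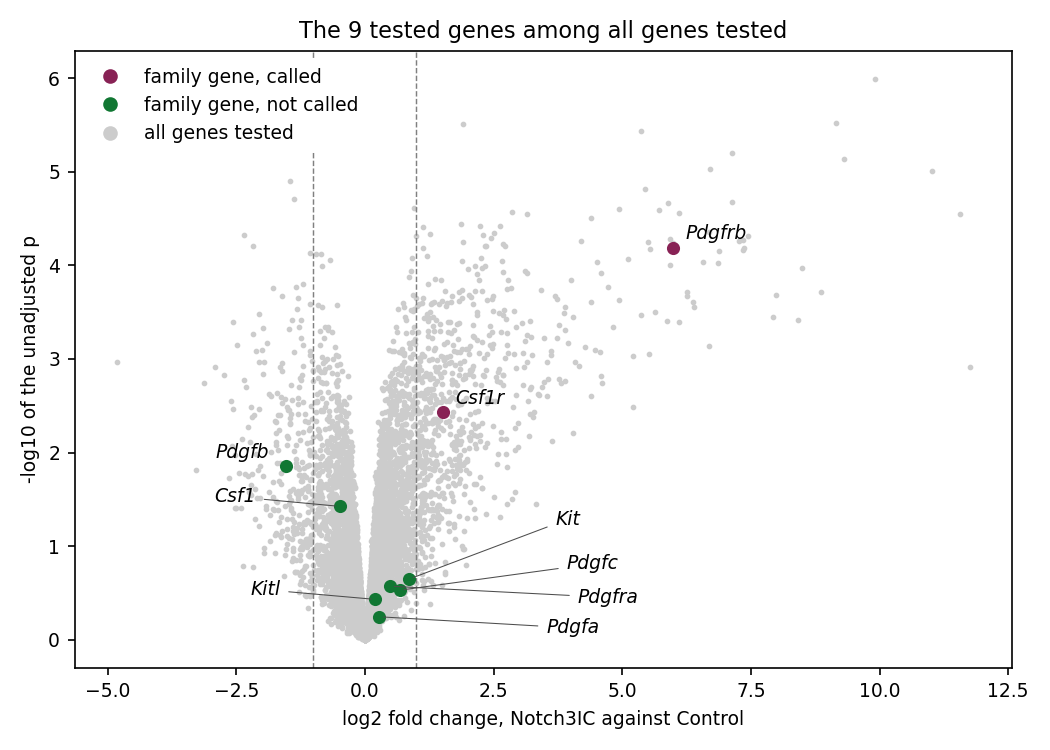
Log2 fold change of Notch3IC against Control (x axis) and -log10 of the unadjusted edgeR p (y axis) for the 12430 genes tested, with the 9 tested family genes in color and dashed lines at log2 fold changes of -1 and 1. Pdgfrb stands at 5.99 and Csf1r at 1.52, while Pdgfb at -1.52 lies past the fold line but was not called in the fit with condition alone.

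Pdgfrb, which encodes the PDGF beta receptor, had the largest log2 fold change of the 9 genes. It lies on chromosome 18 from 61045150 to 61085061 (plus strand, GRCm38). The Control lines had 95, 172, 35 and 37 counts of Pdgfrb, and the Notch3IC lines had 3104, 1255, 8427 and 11261. Every Notch3IC library lay above every Control library, and the lowest Notch3IC library, Set 2, was matched with the highest Control library. Normalized counts averaged 90.6 ± 82.0 in Control lines and 5643 ± 3587 in Notch3IC lines (SD, n = 4 each). Pdgfrb rose by a log2 fold change of 5.99 (SE 0.70, edgeR adjusted p = 0.0169), a 63.7-fold higher level. It ranked 31 of the 12430 genes tested by log2 fold change.

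Within the sets the Notch3IC line held 36.7-fold more Pdgfrb than its Control in Set 1, 8.94-fold in Set 2, 228-fold in Set 3 and 319-fold in Set 4. The direction was therefore the same in 4 of 4 sets, and the size spread widely. The log2 ratio of Set 2 was 3.16, and those of Sets 3 and 4 were 7.83 and 8.32. A log2 ratio above 0 in all 4 sets was found for 21% of all genes tested. Notch3 and Pdgfrb were both lowest in the Set 2 library among the Notch3IC lines, with 467 and 1839 normalized counts, and the part of the Notch3 level in the Pdgfrb level was not tested. Leaving out any 1 library kept the Pdgfrb call, with a log2 fold change of 6.76 without the Set 2 Control library, and without Set 2 it was 7.06. Without Set 3 or Set 4 the log2 fold change was 5.52 and 5.31, and Pdgfrb was no longer called (edgeR adjusted p = 0.215 and 0.221). Of all genes tested 1 was called without Set 3 and 0 without Set 4.

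Pdgfra, which encodes the PDGF alpha receptor, was not called. The gene spans 75152292 to 75198215 of chromosome 5 (plus strand). Control lines held 2252, 7836, 3993 and 4528 normalized counts, and Notch3IC lines 3024, 7067, 7187 and 8843. The groups overlapped, since the Set 2 Control line held more than 3 of the Notch3IC lines and the Set 1 lines were low in both groups. The fitted log2 fold change was 0.49 (SE 0.41, edgeR adjusted p = 0.592). It ranged from 0.26 without the Set 1 Control library to 0.86 without that of Set 2, and Pdgfra was not called on leaving out any 1 library. Set by set the log2 ratio was 0.43, -0.15, 0.85 and 0.97, higher in 3 of 4 sets.

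The balance between both PDGF receptors was read from their counts in the same library. In the Control lines Pdgfrb made up 4.02%, 2.55%, 0.832% and 0.644% of the counts on Pdgfra and Pdgfrb together. In the Notch3IC lines it made up 53.4%, 20.6%, 51.9% and 51.8%. The shares were alike in Notch3IC Sets 1, 3 and 4, and the Set 2 share was lower but above every Control share. Per kilobase of exon, the mean share of Pdgfrb was 3.59 ± 2.80% in Control lines and 58.2 ± 17.3% in Notch3IC lines (SD, n = 4 each). On that scale Pdgfrb exceeded Pdgfra in Sets 1, 3 and 4 of the Notch3IC lines and in 0 Control lines, as the plot of receptor levels per length shows. The summed level of both receptors per kilobase was 481 ± 244 in Control and 1682 ± 826 in Notch3IC cells.

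**Figure D2:**
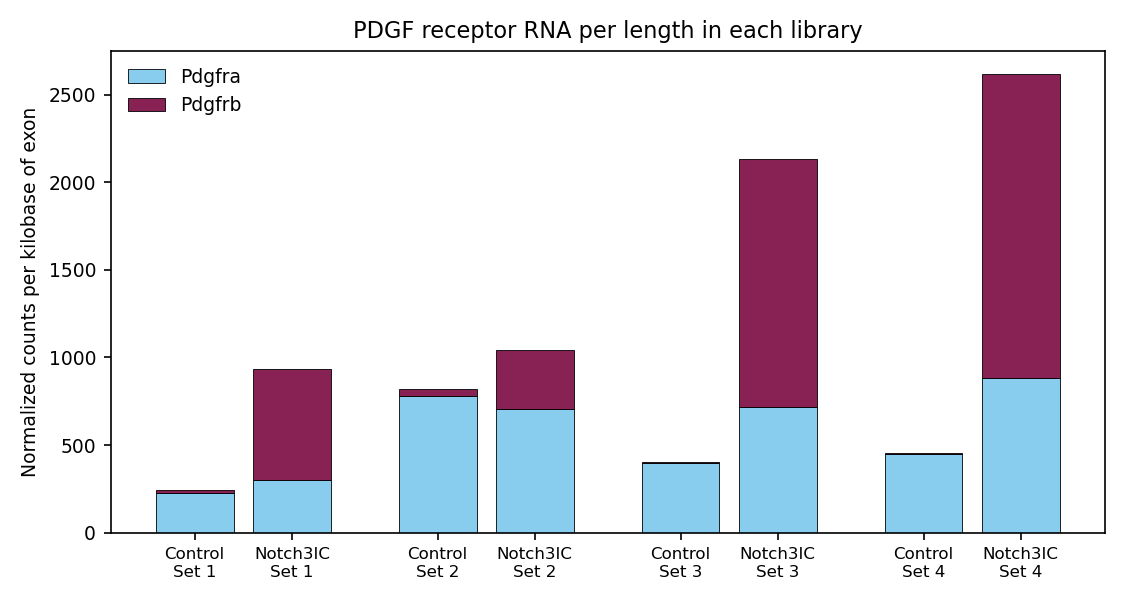
Stacked bars of normalized counts per kilobase of exon of Pdgfra and Pdgfrb (y axis, from 0) in each of the 8 libraries (x axis, by set and group). Pdgfrb is at most 37.5 in the Control libraries and between 336 and 1737 in the Notch3IC libraries, while Pdgfra spans 225 to 782 and 302 to 882.

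Csf1r, the receptor for macrophage colony-stimulating factor, was called higher at a low level. It starts 15.5 kb downstream of Pdgfrb on the same strand of chromosome 18 (61100598 to 61132149), with no annotated coding gene in the gap. Control lines had 9, 10, 7 and 9 counts of Csf1r, and Notch3IC lines 36, 10, 22 and 28. The Set 2 lines had equal counts, and after normalization Set 2 Notch3IC (14.7) stood just above the highest Control line (11.9, also Set 2), so the groups did not overlap. Normalized counts were 8.67 ± 2.38 and 24.7 ± 11.0 (SD, n = 4 each). Csf1r rose by a log2 fold change of 1.52 (SE 0.39, edgeR adjusted p = 0.0719), a 2.86-fold higher level.

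The Csf1r call was lost on leaving out any of 6 libraries. The edgeR adjusted p was 0.110 without the Set 1 Control library, 0.214 without that of Set 3 and 0.228 without that of Set 4, and 0.130, 0.145 and 0.190 without the Notch3IC libraries of Sets 1, 3 and 4. Without Set 1, 3 or 4 it was 0.128, 0.379 and 0.511. With the set as a block it was 0.0467. Of the exon bases of Csf1r, 15.1% overlap Hmgxb3 on the opposite strand, and whether the counting used strand is not given in the sources used here. Hmgxb3 had 1625 ± 289 normalized counts in Control and 1593 ± 268 in Notch3IC cells (log2 fold change -0.03, edgeR adjusted p = 0.954).

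Kit, the stem cell factor receptor, was near the lower end of detection. It lies 376.7 kb from Pdgfra on the same strand (chromosome 5, 75574916 to 75656722), with no annotated coding gene between them. Control lines had 16, 4, 5 and 19 counts of Kit, and Notch3IC lines 31, 5, 7 and 31. Sets 1 and 4 were higher than Sets 2 and 3 in both groups, and the groups overlapped. Kit had a log2 fold change of 0.87 (SE 0.67, edgeR adjusted p = 0.545), with ratios of 1.10, 0.57, 0.39 and 0.78 on the log2 scale within the sets. The fitted value ranged from 0.41 without the Set 1 Notch3IC library to 1.16 without that of Set 3, with no call on either omission. With the set as a block the edgeR adjusted p of Kit was 0.0880 at a log2 fold change of 0.83, short of the fold limit. Kdr, which encodes a vascular endothelial growth factor receptor and is the next coding gene after Kit, had 9.40 ± 4.69 and 13.2 ± 7.68 normalized counts (log2 fold change 0.51, edgeR adjusted p = 0.679).

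**Figure D3:**
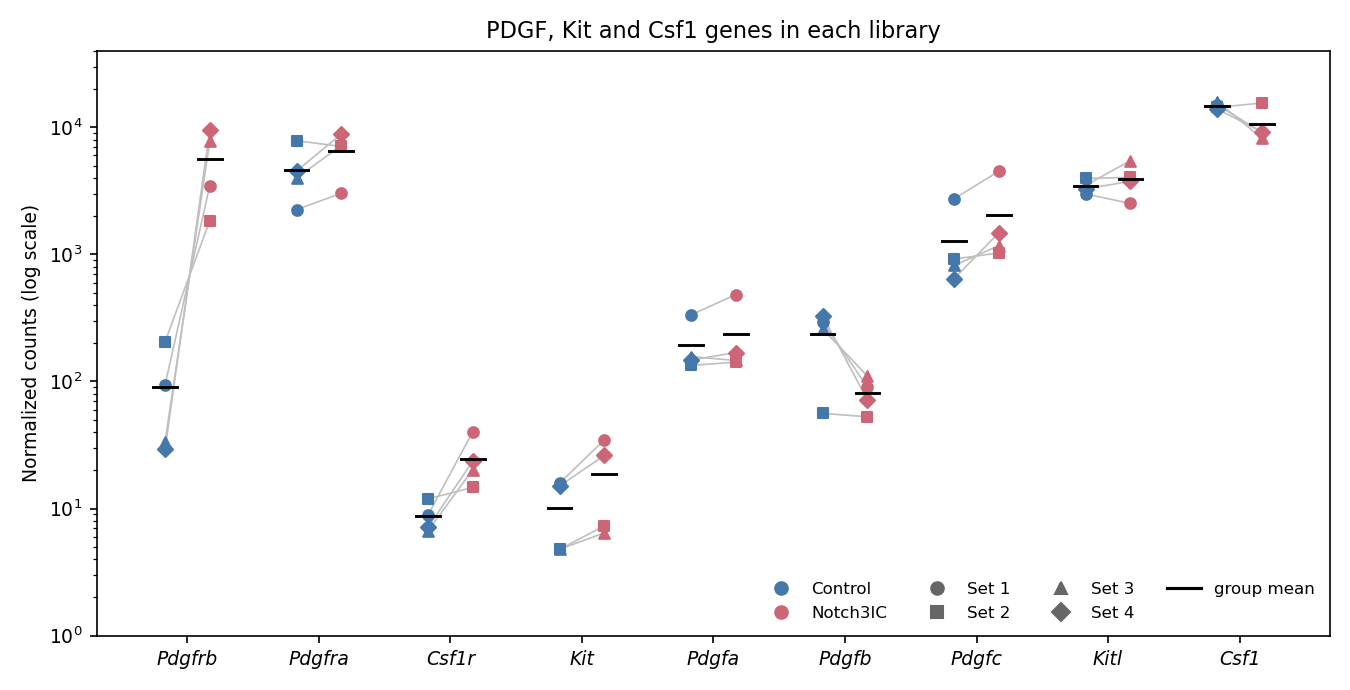
Normalized counts (log10 axis) of the 9 genes with counts in each library, with Control and Notch3IC side by side, 1 point per library, lines joining the lines of a set and bars at the group means. The Notch3IC points of Pdgfrb (1839 to 9513) lie apart from its Control points (29.3 to 205), and the points of both groups overlap for all others except Csf1r.

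Among the PDGF ligand genes edgeR called 0 of the 3 tested, with 1 of them, Pdgfb, at an unadjusted p under 0.05 and called lower by DESeq2. Pdgfb, which encodes the ligand chain that binds both receptors, was the lowest-ranked of the 9 genes by log2 fold change. It lies on chromosome 15 from 79995874 to 80014977 (minus strand). Normalized counts were 295, 56.1, 259 and 327 in the Control lines, against 90.6, 52.7, 110.4 and 71.8 in the Notch3IC lines. Control Sets 1, 3 and 4 stood above every Notch3IC line, while the Set 2 Control line was close to its Notch3IC partner, so the groups overlapped.

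The log2 fold change of Pdgfb was -1.52 (SE 0.49, edgeR adjusted p = 0.144), with means of 235 ± 122 and 81.4 ± 24.7 (SD, n = 4 each). Set by set the log2 ratio was -1.70, -0.09, -1.23 and -2.18, lower in 4 of 4 sets, which held for 19.4% of all genes tested. Pdgfb was called lower with the set as a block (log2 fold change -1.40, edgeR adjusted p = 0.0463), without the Set 2 Control library (edgeR adjusted p = 0.0321), without Set 2 (0.00897) and by DESeq2 (adjusted p = 0.0209). Leaving out a library or set gave log2 fold changes from -1.85 to -1.26, with an edgeR adjusted p of up to 0.720. Without Set 1 or without Set 4 the unadjusted edgeR p of Pdgfb was not under 0.05.

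Pdgfc, which encodes a ligand of the alpha receptor that needs proteolytic activation, was the most abundant PDGF ligand gene per length. The gene spans 81036416 to 81214040 of chromosome 3 (plus strand). Control lines held 2739, 918, 818 and 644 normalized counts, and Notch3IC lines 4512, 1027, 1171 and 1483. Set 1 was far above the other sets in both groups, and the groups overlapped. Pdgfc had a log2 fold change of 0.68 (SE 0.61, edgeR adjusted p = 0.619). It was -0.045 without the Set 1 Notch3IC library and 1.37 without the Set 1 Control library. Each set's log2 ratio was above 0, at 0.72, 0.16, 0.52 and 1.20, and with the set as a block the edgeR adjusted p was 0.0552 at a log2 fold change of 0.65, which did not reach the fold limit.

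Pdgfa, which encodes the ligand specific to the alpha receptor, stood at 334, 134, 157 and 147 normalized counts in the Control lines and at 483, 142, 146 and 169 in the Notch3IC lines. Set 1 was again the highest in both groups, and the other 3 sets overlapped. Pdgfa had a log2 fold change of 0.28 (SE 0.48, edgeR adjusted p = 0.816). The value was -0.33 without the Set 1 Notch3IC library and 0.68 without the Set 1 Control library. The gene lies on chromosome 5 from 138976014 to 138997370 (minus strand), and 26.1% of its exon bases overlap the antisense gene 6330403L08Rik, so reads in that part of the gene cannot be assigned to either without strand. Across the 8 libraries the log2 levels of Pdgfa and Pdgfc correlated at r = 0.940, a description in which the Set 1 libraries share the high values.

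Pdgfd, which encodes the ligand of the beta receptor, had 0 counts in all 8 libraries. The gene spans 6168584 to 6378850 of chromosome 9 (plus strand). A count of 0 allows up to 3 counts, or between 0.106 and 0.193 CPM depending on the library, for counting error only, so expression below that was not detectable at this depth.

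The makeup of the PDGF ligand RNA was computed per kilobase over Pdgfa, Pdgfb and Pdgfc. Pdgfc took 75.1%, 76.2%, 58.8% and 50.1% of it in the Control lines, and 83.4%, 77.6%, 75.8% and 80.3% in the Notch3IC lines. Pdgfb took 9.91%, 5.70%, 22.8% and 31.2% in Control and 2.05%, 4.87%, 8.74% and 4.75% in Notch3IC lines. The Pdgfb share was lower in the Notch3IC line of every set, by little in Set 2, and the groups overlapped.

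Kitl, which encodes stem cell factor, was not called. It lies on chromosome 10 from 100015630 to 100100416 (plus strand). In Control lines it had 2988, 3957, 3489 and 3274 normalized counts, and in Notch3IC lines 2516, 4031, 5469.7 and 3753. The Set 3 Notch3IC line was the highest and the Set 1 Notch3IC line the lowest, so that the Control range lay within the Notch3IC range. Kitl had a log2 fold change of 0.20 (SE 0.21, edgeR adjusted p = 0.684). Leaving out a library or set gave values from 0.0028 to 0.37, with no call.

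Csf1, which encodes macrophage colony-stimulating factor, was the most abundant of the 10 genes per kilobase in both groups, and was not called. The gene spans 107741048 to 107760469 of chromosome 3 (minus strand). Control lines held 15025, 14323, 15918 and 13915 normalized counts, and Notch3IC lines 9118, 15527, 8206 and 9217. The Control lines were close together and the Notch3IC lines of Sets 1, 3 and 4 lay below all of them, while the Set 2 Notch3IC line lay among them. Means were 14795 ± 878 and 10517 ± 3371 (SD, n = 4 each), a log2 fold change of -0.49 (SE 0.20, edgeR adjusted p = 0.236). Its ratio on the log2 scale was -0.72, 0.12, -0.96 and -0.59, lower in 3 of 4 sets. Leaving out a library or set gave log2 fold changes from -0.76 to -0.35, all short of the fold limit. The edgeR adjusted p of these fits ran from 0.0053 to 0.781. With the set as a block the edgeR adjusted p of Csf1 was 0.0911 at a log2 fold change of -0.54, also short of the fold limit.

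**Figure D4:**
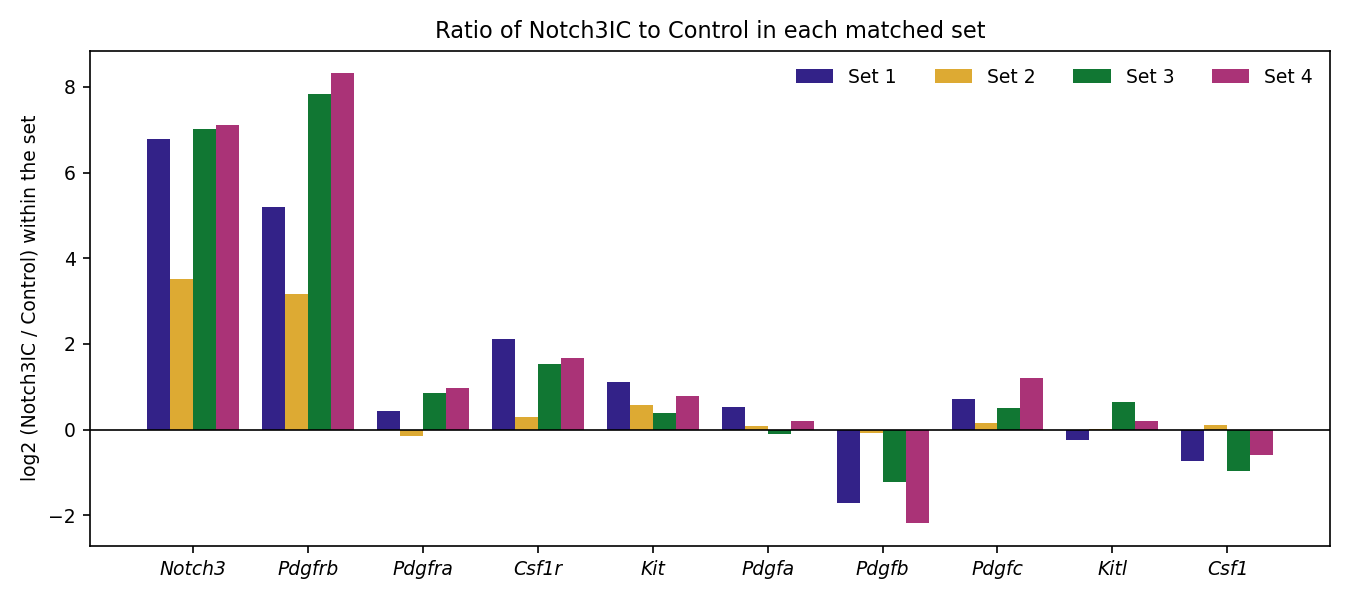
Log2 ratio of Notch3IC to Control within each matched set (y axis) for Notch3 and the 9 family genes with counts (x axis), with 1 bar per set. Pdgfrb lies between 3.16 and 8.32, all 4 Csf1r, Kit and Pdgfc bars are above 0, all 4 Pdgfb bars are below 0, and the Set 2 bars are the shortest for Pdgfrb, Csf1r, Pdgfb, Pdgfc and Csf1.

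Set 2 had the smallest ratios for 8 of the 9 genes. Its ratio was the nearest to 0 of the 4 sets for Pdgfrb, Csf1r, Pdgfb, Pdgfc, Pdgfra, Kitl, Csf1 and Pdgfa, and for Kit it was 0.57, above that of Set 3. Among all genes tested Set 2 was also the set nearest to 0 for 53% of genes, and the median size of the log2 ratio was 0.11 in Set 2 against 0.25 in each other set, so small Set 2 ratios were common to genes at large. Set 2 also held the lowest Notch3 level and the lowest total (15524262 counts) among the Notch3IC lines, and which of these goes with the ratios was not tested.

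Levels can be ranked between genes only per length. Per kilobase of exon, mean normalized counts in Control ran from Csf1 (2802 ± 166) through Kitl (580 ± 69.1), Pdgfra (464 ± 233), Pdgfc (251 ± 192), Pdgfa (61.9 ± 30.3), Pdgfb (56.4 ± 29.4) and Pdgfrb (16.5 ± 14.98) to Csf1r (1.50 ± 0.412) and Kit (1.14 ± 0.693), with SD over 4 lines. In this order the library ranges separate Csf1 from Kitl, Pdgfc from Pdgfa, and Pdgfrb from Csf1r, and the other neighbours overlap. In Notch3IC cells the mean of Pdgfrb (1030 ± 655) came next to that of Csf1 (1992 ± 638), followed by Kitl (667 ± 205), Pdgfra (651 ± 247), Pdgfc (402 ± 325), Pdgfa (75.4 ± 53.2), Pdgfb (19.6 ± 5.94), Csf1r (4.28 ± 1.91) and Kit (2.09 ± 1.57). Single lines departed from this order, as Pdgfrb stood at 634 in Set 1, below Pdgfc (887), and at 336 in Set 2, below Pdgfra (705) and Kitl (682). The ranges of Pdgfc and Pdgfa, of Pdgfa and Pdgfb, and of Pdgfb and Csf1r do not overlap, and those of the other neighbours do. The place of Pdgfra depends on the length used: over the longest transcript instead of all exons its mean was 956 in Notch3IC cells, beside 1041 for Pdgfrb.

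The genes most like Pdgfrb in pattern, by Pearson correlation of log2 levels over the 8 libraries, were Epha3 (r = 0.996), Hecw2 (r = 0.994) and Cdk14 (r = 0.994). Epha3, an ephrin receptor gene, had a log2 fold change of 4.93, Hecw2 one of 2.63 and Cdk14 one of 0.78. For Csf1 they were 1190002N15Rik (r = 0.986), Lfng (r = 0.977), which encodes a glycosyltransferase that modifies Notch receptors, and C730002L08Rik (r = 0.974). All such correlations include the difference between the groups and are given as a description. Pdgfrl, a gene named for its likeness to PDGF receptors and not among the 10, was looked at after its values were seen. Control lines had 40, 78, 68 and 50 counts of Pdgfrl and Notch3IC lines 213, 102, 345 and 432, a log2 fold change of 2.18 (SE 0.36, edgeR adjusted p = 0.0263). Leaving out Control Set 3 or Control Set 4 ended the call (edgeR adjusted p = 0.104 for each).

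Promoter sequence was available from RefSeq (GRCm38.p6) for 7 of the 10 genes as 9 windows, and for Pdgfrb, Csf1r and Pdgfb none was matched. The 250 bases before each start were searched on both strands for TGGGAA, the core letters bound by Rbpj, the DNA-binding partner of the Notch intracellular domain. The letters occurred in 3 of the 9 windows, those of Kitl, Pdgfd and 1 of the 2 Pdgfa starts, and in 21.6% of 32851 windows of all genes. The Kitl and Pdgfa windows are shown with the match in capitals, 154 and 13 bases before the start, as is the Pdgfra window, which holds none, because Pdgfra is the receptor set against Pdgfrb above.
Kitl, chr10:100015571-100015820, plus strand: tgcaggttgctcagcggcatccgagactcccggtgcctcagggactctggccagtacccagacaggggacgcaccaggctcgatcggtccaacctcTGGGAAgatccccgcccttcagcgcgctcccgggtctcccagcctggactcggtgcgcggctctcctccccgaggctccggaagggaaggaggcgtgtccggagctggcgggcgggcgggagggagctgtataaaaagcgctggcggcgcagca
Pdgfa, chr5:138994282-138994531, minus strand: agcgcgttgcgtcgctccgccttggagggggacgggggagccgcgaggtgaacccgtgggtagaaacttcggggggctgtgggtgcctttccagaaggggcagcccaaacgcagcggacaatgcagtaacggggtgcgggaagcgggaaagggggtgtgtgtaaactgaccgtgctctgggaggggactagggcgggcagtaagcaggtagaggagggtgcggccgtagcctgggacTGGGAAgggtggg
Pdgfra, chr5:75152001-75152250, plus strand: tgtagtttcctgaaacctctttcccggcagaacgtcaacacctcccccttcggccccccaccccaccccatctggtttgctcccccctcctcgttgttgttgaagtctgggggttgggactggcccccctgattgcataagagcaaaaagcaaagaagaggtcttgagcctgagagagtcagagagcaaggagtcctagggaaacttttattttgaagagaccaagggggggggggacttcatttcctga

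The other genes of the pathway were taken from lists by role. Of the other class III genes, Flt3 had at most 1 count in any library and was not tested, and neither Flt3l (log2 fold change -0.33, edgeR adjusted p = 0.791), the Flt3 ligand, nor Il34 (0.40, 0.529), a further Csf1r ligand, was called. Of 8 tested proteases that process or shed the ligands and receptors, 1 was called higher and 0 lower, with a median log2 fold change of 0.32. It was Mmp14, a membrane-bound matrix metalloproteinase, at 5584 ± 996 and 13461 ± 5543 normalized counts (log2 fold change 1.27, SE 0.30, edgeR adjusted p = 0.0604). The Mmp14 call was lost without any of 5 libraries, the Controls of Sets 2, 3 and 4 and the Notch3IC lines of Sets 3 and 4 (edgeR adjusted p = 0.108 to 0.191). With the set as a block, and also by DESeq2, 2 proteases were called higher, the other being Plat, a plasminogen activator that cleaves PDGF-C. Plat had 192, 803, 437 and 375 normalized counts in the Control lines and 973, 758, 1007 and 1162 in the Notch3IC lines.

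Of 32 tested adaptors and effectors that bind the activated receptors or act after them, edgeR and DESeq2 called 0. At an unadjusted edgeR p under 0.05 stood 4 higher and 2 lower, beside 18.4% of all genes in either direction. The median log2 fold change of the 32 was 0.10, beside -0.01 over all genes. By edgeR 2 of the 32 had an adjusted p under 0.1 below the fold limit, Plcg1 (0.39), a phospholipase, and Nck2 (0.54), an adaptor. Ptpn11, a phosphatase that carries the signal to Ras, had the highest mean normalized count of the list, not corrected for gene length, and a log2 fold change of 0.07 (edgeR adjusted p = 0.883). Of 18 attenuation genes edgeR and DESeq2 called 0 (median 0.08). Here 2 higher and 2 lower had an unadjusted edgeR p under 0.05, beside the same 18.4% of all genes. Of the 18, Spry1 (0.78), a Sprouty inhibitor of Ras signaling, and Spred2 (-0.50), a related inhibitor, passed the adjusted p alone. Ptpn1, a phosphatase that acts on PDGF receptors and the gene with the highest mean count of this list on the same scale, had 2815 ± 325 and 3625 ± 391 normalized counts (log2 fold change 0.36, edgeR adjusted p = 0.137).

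Of 5 receptor and ligand binding partners edgeR and DESeq2 called 0 (median 0.36). At an unadjusted edgeR p under 0.05 were 2 of the 5, both higher, beside 18.4% of all genes in either direction. Sparc, a matrix protein that binds PDGF-B, had the highest normalized counts of the list in every library, at 66819 ± 8531 and 87216 ± 7903 normalized counts (log2 fold change 0.38, edgeR adjusted p = 0.182). With the set as a block Slc9a3r1, a scaffold that binds the PDGF receptor tail, was called lower (edgeR adjusted p = 0.0350). Of 16 tested immediate-early genes, which growth factors induce, 2 were called higher and 0 lower, while the list median was -0.09. They were Dusp1, a phosphatase of MAP kinases (357 ± 35.1 and 843 ± 371 normalized counts, log2 fold change 1.24, SE 0.29, edgeR adjusted p = 0.0623), and Klf2, a transcription factor (21.8 ± 3.43 and 60.8 ± 31.1, log2 fold change 1.48, SE 0.40, edgeR adjusted p = 0.0891). Both calls were kept without the Set 2 Notch3IC library and lost without any other 1 library. The edgeR adjusted p was then 0.0949 to 0.173 for Dusp1, whose log2 fold change was 0.95 without the Set 1 Notch3IC library, and 0.105 to 0.252 for Klf2. With the block, and also by DESeq2, 3 of the 16 were called higher, Jun joining them, and 1 lower, Klf4. Egr2, a transcription factor gene of this list that did not pass the edgeR filter, had 1, 2, 0 and 0 counts in the Control lines and 33, 8, 6 and 8 in the Notch3IC lines, and DESeq2 called it higher (log2 fold change 4.28, adjusted p = 0.00735).

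**Figure D5:**
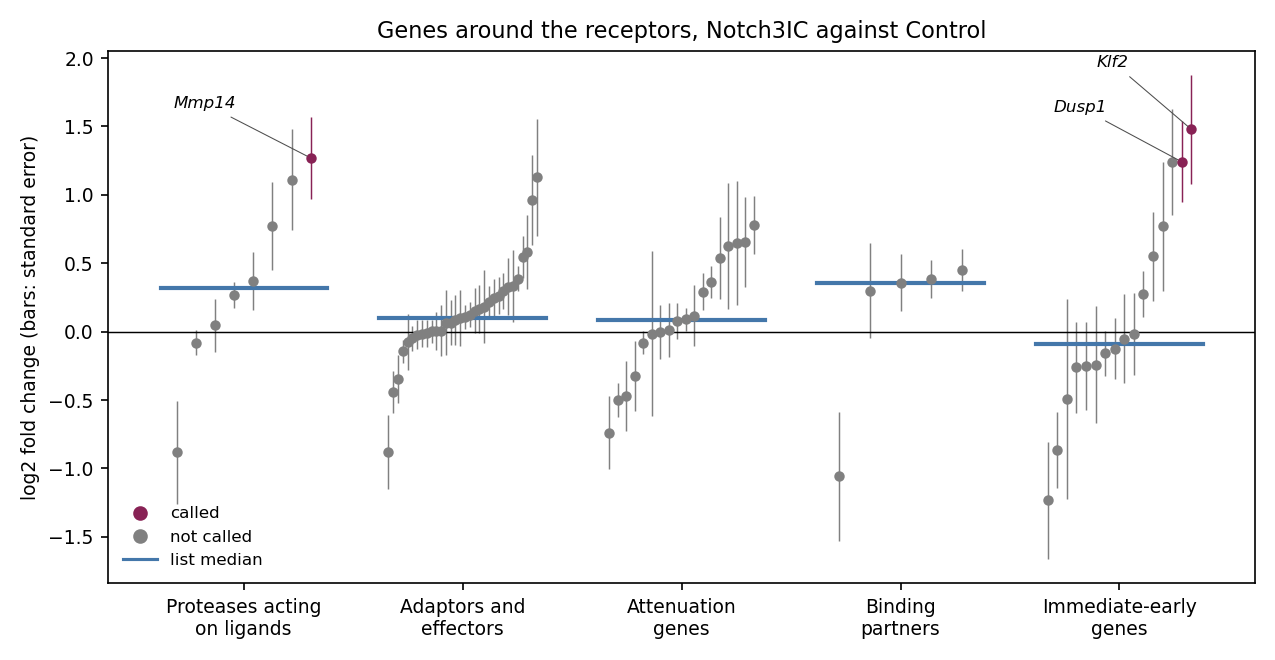
Log2 fold change of Notch3IC against Control (y axis) of each tested gene in the pathway lists (x axis), with called genes in color, bars for the standard error and a line at each list's median. Mmp14, Dusp1 and Klf2 are the called genes of these 5 lists, and the medians of the adaptor and attenuation lists are 0.10 and 0.08.

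Because these receptors mark other cell types, markers of such cells were read beside them. Of 6 tested mural cell markers 2 were called higher, Cspg4, the NG2 proteoglycan (25.8 ± 13.4 and 470 ± 246 normalized counts, log2 fold change 4.20, SE 0.52, edgeR adjusted p = 0.0169), and Mcam, an adhesion molecule (34.2 ± 16.6 and 453 ± 243, log2 fold change 3.73, SE 0.57, edgeR adjusted p = 0.0247). Leaving out any 1 library kept the Cspg4 call, while that of Mcam was lost on omitting Control Set 3 (edgeR adjusted p = 0.104) or Control Set 4 (0.103). The median log2 fold change of the 6 was 1.12. With the block 5 were called higher and by DESeq2 2, beside 5.19% and 5.05% of all genes. Acta2, Tagln and Cnn1 were not called with condition alone (edgeR adjusted p = 0.462, 0.706 and 0.631). Kcnj8, the other of the 6, had a log2 fold change of -0.32 (edgeR adjusted p = 0.908) and was lower in 2 of 4 sets. The summed mural markers were 35684, 11356, 7484 and 3002 normalized counts in the Control lines and 79325, 17826, 24193 and 16286 in the Notch3IC lines, with Acta2 giving the most counts in every library, and Abcc9 had at most 3 counts in any library. Rgs5, a regulator of G protein signaling, did not pass the edgeR filter, with 1, 2, 3 and 4 counts in the Control lines and 18, 3, 68 and 60 in the Notch3IC lines. Normalized counts of Rgs5 did not overlap between the groups, and DESeq2, run without that filter, called it higher (log2 fold change 3.85, adjusted p = 0.000371). Myh11 and Des did not pass the edgeR filter either, and DESeq2 did not call them (log2 fold change 0.76 and 0.99, adjusted p = 0.880 and 0.521). The part of these markers in the Pdgfrb result was not tested.

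Of 11 macrophage markers, 8 had at most 10 counts in every library, and Emr1 and Aif1 had 0 counts in all. The list summed to between 72.7 and 209 normalized counts per library, mostly from Cd14 and Cd68, which encode a surface and a lysosomal protein. Cd14 had 95.9 ± 13.3 normalized counts in Control and 62.9 ± 23.5 in Notch3IC cells (log2 fold change -0.61, edgeR adjusted p = 0.322), and Cd68 had 80.8 ± 29.3 and 61.1 ± 21.4 (-0.40, 0.610). Cd68 was above Cd14 in both Set 4 lines and in the Set 1 Notch3IC line. Lyz2, a lysozyme gene, went the other way, with 0, 3, 2 and 1 counts in the Control lines and 2, 3, 7 and 11 in the Notch3IC lines. Its normalized counts were higher in 4 of 4 sets. Lyz2 did not pass the edgeR filter, and DESeq2 did not call it (log2 fold change 1.90, adjusted p = 0.288). Of the 6 mast cell markers 1 was tested, Hdc, which encodes histidine decarboxylase, at 11.7 ± 5.36 and 6.90 ± 2.88 normalized counts (log2 fold change -0.72, edgeR adjusted p = 0.483). It was lower in 3 of 4 sets. Cpa3, Tpsb2, Fcer1a and Ms4a2 had 0 counts in all libraries. Mcpt4, a mast cell protease gene, had 0 counts in every Control library and 152, 2, 216 and 94 counts in the Notch3IC lines, and did not pass the expression filter of edgeR, while DESeq2, without that filter, called it higher (adjusted p = 1.9e-05).

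Of 7 endothelial markers 3 were tested, with a median log2 fold change of 0.51, and Cldn5 had 0 counts in all libraries. Esam, a junction molecule, was called lower (log2 fold change -1.64, edgeR adjusted p = 0.0596), and it was no longer called on omitting Control Set 3, Control Set 4 or Notch3IC Set 4 (edgeR adjusted p = 0.162, 0.180 and 0.169). Pecam1, an adhesion molecule (log2 fold change 0.60, edgeR adjusted p = 0.487), and Kdr, given above, were not called and had log2 fold changes above 0. Of 4 tested fibroblast markers Pdpn, a mucin-like surface protein gene, was called lower (log2 fold change -1.20, edgeR adjusted p = 0.0629), a call lost without any 1 library except the Control of Set 1 and the Notch3IC line of Set 2 (edgeR adjusted p = 0.103 to 0.203). Col1a1 (log2 fold change 1.01, edgeR adjusted p = 0.166) and Col1a2 (1.15, 0.154) were higher in 4 of 4 sets, and Dcn was at -0.47 (0.555). With the block 2 of the list, Col1a1 and Col1a2, were called higher, and DESeq2 called Col1a2 higher. The median of the 4 was 0.27, and the list summed to 115631 ± 41995 normalized counts in Control and 224468 ± 77717 in Notch3IC cells. Lum, Thy1, Dpt and Pi16 had at most 4 counts in any library.

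The tissue of origin given by the study, ovarian surface epithelium, was checked with the 11 of its listed markers for which counts were listed. Of the 9 tested, 2 were called lower and 0 higher, and 9 of 9 log2 fold changes were below 0 (median -1.64). These were Msln, the mesothelin gene (2349 ± 1152 and 389 ± 290 normalized counts, log2 fold change -2.60, edgeR adjusted p = 0.0625), and Upk1b, a uroplakin gene (4289 ± 1322 and 943 ± 784, log2 fold change -2.19, edgeR adjusted p = 0.0762). The call was lost without any of 4 libraries for Msln, both lines of Sets 3 and 4 (edgeR adjusted p = 0.162 to 0.195). For Upk1b it was lost without these or the Set 2 Control library (0.114 to 0.232), and the log2 fold change was -2.92 without the Set 2 Notch3IC library. With the block 5 of the 9 tested were called lower, and by DESeq2 4, beside 2.53% and 1.37% of all genes. The list summed to 24834, 45636, 72325 and 69347 normalized counts in the Control lines and to 7351, 28938, 25665 and 19744 in the Notch3IC lines. Upk3b, a uroplakin gene, gave the most counts in the 4 Control lines and in Notch3IC Sets 2 and 3, and Wt1, a transcription factor gene, in Notch3IC Sets 1 and 4, while Krt7 and Epcam had at most 46 and 12 counts in any library and were not tested by edgeR. Of these DESeq2 called Krt7, a keratin gene, lower (log2 fold change -3.23, adjusted p = 0.0465). Krt7 had 5, 2, 46 and 7 counts in the Control lines and 1, 1, 2 and 2 in the Notch3IC lines, so the size rests mostly on the Set 3 Control line. Set 1 thus had the lowest surface marker sum and the highest mural sum, Pdgfa and Pdgfc levels in both groups. Single surface markers departed from this in Control, as Krt8 (3395 normalized counts) and Krt18 (1361) in Set 1 were above Set 2 (2544 and 1004). The part of these differences between sets in the results was not tested.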

How the data were processed

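Polyadenylated RNA of 4 Control and 4 Notch3IC lines was sequenced as single-end reads. The authors deposited 1 table per library of whole-number read counts per gene symbol, without normalization. The submitters' processing notes name TopHat, Cufflinks, DESeq and mm9; versions, annotation and strand are not given in the sources used here. Genes were placed on GRCm38 with GENCODE M21, which differs from mm9, and exon lengths and overlaps are from it.

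Counts were compared with edgeR 4.0.16 (TMM, filterByExpr, robust quasi-likelihood F test, condition alone) in R 4.3.3, with BH adjustment and the thresholds given above. SE values are Wald errors of the fit. Ratios within a set used normalized counts with a pseudocount of 0.5, and correlations used log2 CPM with a prior count of 2. The biological coefficient of variation was 26.3%, or 14.1% with the set as a block. The set numbers pair the lines, as each set came from its own infection: deviations from the group means correlated at r = 0.398 to 0.804 within sets, against -0.501 to 0.372 for crossed pairs. The main fit, with condition alone, does not use this pairing, and the block was kept as an alternative.

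The 10 genes and all lists were chosen with earlier results of these data known. Named outside the 10 were the called genes of each list, or the gene with its highest mean count where none was called, and the 3 genes most correlated with Pdgfrb and with Csf1. Other genes were named after their values were seen. Alternatives were DESeq2 1.42.0, other scalings and filters, other thresholds, the block, and each library or set left out. The test was tried on counts simulated with the fitted dispersions. It called 35.0% of genes changed by 1 on the log2 scale, which is the fold limit itself, 91.3% at 2 and 96.5% at 3.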

Additional observations from a re-analysis of the deposited data

Results flagged for a closer look

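In each group of 4 libraries, a library was picked out when its gap to the nearest other made up most of the group's range (Dixon's criterion). Of 61 groups over 32 genes, 7 held such a library. The criterion flags about 1 in 20, or 3.05, only for independent groups of normally distributed values. These groups share the same 8 libraries and were not log-transformed, so 3.05 is no firm expectation here. The Set 1 library stood above the others for Pdgfa in Control (334 normalized counts) and in Notch3IC (483), and for Pdgfc in Control (2739) and in Notch3IC (4512). Set 1 was also above the others for Kdr in Notch3IC (24.6). The Set 2 Notch3IC library was above its group for Csf1 (15527), and the Set 3 Control library was above its group for Notch3 (70.8). The causes were not tested.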

How the results depend on the processing

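Precision is limited by 4 lines per group and, for Kit and Csf1r, by counts of at most 36. RLE, upper-quartile and total-count scaling and no expression filter changed no call among the 9 tested genes, and the median over all genes was at most 0.04 (log2) from 0 under them. With the set as a block, 645 genes were called higher and 315 lower, in place of 423 and 92, with 1 of the 9 lower (Pdgfb), and the block changed no other call among them. DESeq2 called 708 and 192, also with 1 lower. At an adjusted p under 0.05, 290 genes were higher and 48 lower, with 1 of the 9 higher. With no fold limit 622 genes were higher and 210 lower. Requiring 10 counts per library left 1 of the 9 higher, as Csf1r was then not tested. Leaving out a library or set gave 0 to 702 genes higher and 0 to 305 lower, with 0 to 2 of the 9 higher and 0 to 1 lower. The block without Set 1, 2, 3 or 4, chosen after seeing the data, gave 46, 904, 59 and 129 genes higher and 23, 426, 22 and 30 lower, with 0, 2, 0 and 0 of the 9 higher and 0, 1, 0 and 0 lower. In it Pdgfrb was not called without Set 1, 3 or 4 (edgeR adjusted p = 0.128, 0.140 and 0.136). Over the omissions the log2 fold change ranged from -0.33 to 0.68 for Pdgfa, from -0.045 to 1.37 for Pdgfc and from -0.068 to 0.19 for Ptpn11, each lowest and below 0 without the Set 1 Notch3IC library, and for Kitl it was -0.0077 in the block without Set 3. The causes were not tested.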
